A study of Mus musculus with 5 samples.

Results

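The secreted ribonuclease A family was followed in mouse dorsolateral prostate through 6 genes taken by symbol, Rnase1, Rnase4, Ang, Rnase6, Rnase9 and Rnase10, out of 51912 genes listed in the files. The set was chosen by the level of Rnase1, whose counts and TPM were below those of all controls under the deletion label, so the values of Rnase1 are given as a description without a test. The other 5 genes entered by family membership. All 6 had at least 1 count in some library, and 4 of them, Rnase1, Rnase4, Ang and Rnase6, passed the filter on low counts.

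Total RNA of the dorsolateral prostate was sequenced from 2 mice labelled Ghr deletion (Ghrflox/flox;ROSA26Cre-ERT2+/0) and 3 mice labelled Tamoxifen-control (Ghrflox/flox without Cre), all 3-month-old males. Every mouse carried loxP-flanked alleles of Ghr, the growth hormone receptor gene. Every mouse also received tamoxifen, 250 mg/kg on each of 5 days, and the tissue was collected 1 month later. The ROSA26 locus is active in most cell types, so the Cre is not restricted to prostate epithelium, and tamoxifen itself acts on oestrogen receptors in both groups.

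Members of this family are small secreted enzymes that cut RNA, held in shape by disulfide bonds and using a pair of histidines and a lysine at the active site. Rnase1 is the pancreatic-type ribonuclease, a digestive enzyme of the pancreas that in human is also released by endothelium. Rnase4 and Ang, which encodes angiogenin, lie in 1 locus and share promoters and first exons that are spliced to separate coding exons. Rnase6 encodes an antimicrobial ribonuclease found in macrophages. Rnase9 and Rnase10 are genes of the male reproductive tract, known mainly from the epididymis, and their proteins are thought not to work as ribonucleases.

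The stretch that holds the catalytic lysine is printed below because it separates the members with counts in every library from those near 0. It was searched in the coding sequence of each member, taken from GENCODE M21 transcripts (all on chromosome 14), with 21 bases in capitals for the 7 signature codons of the family and 21 flanking bases on each side.
Rnase1: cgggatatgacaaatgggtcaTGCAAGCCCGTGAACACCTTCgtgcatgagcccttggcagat
Rnase4: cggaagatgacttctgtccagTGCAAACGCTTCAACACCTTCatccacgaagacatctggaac
Ang: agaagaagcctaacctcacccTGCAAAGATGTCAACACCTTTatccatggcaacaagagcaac
Rnase6: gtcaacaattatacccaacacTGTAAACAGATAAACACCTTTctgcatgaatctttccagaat
Rnase1 differed from Rnase4 at 4 of the 21 capital bases, from Ang at 6 and from Rnase6 at 7. The same 7 codons were not found in Rnase9, in Rnase10 or in the neighbouring family gene Rnase12. The coding sequences with the signature ran from 438 bases in Ang to 462 in Rnase6, against 555 in Rnase9 and 738 in Rnase10. Of all 50-base words in the M21 transcripts, those of Rnase1, Rnase6, Rnase9 and Rnase10 occurred in no other gene's transcripts. For Rnase4, 7.75% of the words also occurred in Ang, and for Ang 14.5% occurred in Rnase4 or in Ang2, so the division of reads between Rnase4 and Ang is uncertain. The lengths of Rnase1 and Rnase4 in the authors' tables differ from those in M21, so the shared stretch in the annotation they counted may differ too.

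The 250 bases before the start sites of Rnase1 and of the shared Rnase4 and Ang promoter are shown because Rnase1 or Rnase4 had the highest TPM of the family in each library. They are from RefSeq on GRCm38.p6. The Rnase1 stretch is chr14:51146768-51147017 on the minus strand, and the Rnase4 and Ang stretch is chr14:51090827-51091076 on the plus strand. RefSeq lists this shared window, letter for letter, under both genes.
Rnase1: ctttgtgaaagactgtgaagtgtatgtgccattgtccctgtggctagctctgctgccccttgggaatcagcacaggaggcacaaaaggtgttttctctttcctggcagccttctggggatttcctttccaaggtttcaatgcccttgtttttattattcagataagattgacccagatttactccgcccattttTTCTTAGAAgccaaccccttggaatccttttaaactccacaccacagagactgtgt
Rnase4 and Ang: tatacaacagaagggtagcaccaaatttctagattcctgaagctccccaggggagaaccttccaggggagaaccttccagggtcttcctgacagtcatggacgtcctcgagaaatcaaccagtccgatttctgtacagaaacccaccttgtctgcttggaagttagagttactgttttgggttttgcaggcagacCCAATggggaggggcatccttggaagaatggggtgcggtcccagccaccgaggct
Capitals mark matches to any of 4 motifs searched on both strands of the window that runs 250 bases before to 50 bases after the start. The first was TTCNNNGAA, the palindrome bound by STAT factors. The second was AGAACA, known as the androgen receptor half-site. The third was the TATA box, written TATAAA. The last was the CCAAT box. No match overlapped another in these stretches. Positions are counted from the start site, with negative values before it. The Rnase1 window held TTCTTAGAA from -56 to -48, a match to the STAT palindrome, which was found in 8.29% of the 32817 promoter windows of RefSeq, and CCAAT after the start. The shared window held CCAAT from -55 and again after the start, and 37.4% of all windows hold this box. The half-site, in 19% of all windows, and the TATA letters, in 13.6%, were in neither of the 2 windows. The window of a second Rnase4 start site further along the locus held the half-site from -116.

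Depth ran from 31740687 to 32782683 expected counts in the libraries labelled Ghr deletion and from 19517831 to 41553558 in the control libraries, and 18590 genes were tested. Ghr, summed over the gene, was not lower under the deletion label: 21.5 and 10.2 CPM (expected counts scaled to the TMM-adjusted depth), against 10.1, 11.8 and 13.2 CPM in controls, with a log2 fold change of 0.44 (edgeR's quasi-likelihood test, adjusted p 0.874). Leaving out the first deletion-labelled library gave -0.20 for Ghr. Directions are therefore those of libraries labelled Ghr deletion. Control replicates 1 and 2 stood apart from the other 3 libraries: Crisp1, an epididymal gene, had 217 and 831 CPM in libraries labelled Ghr deletion and 0.185, 2.72 and 866 CPM in controls 1 to 3. Crisp1 is 1 of 15 epididymal markers, of which 10 were under 2 CPM in every library, 6 of them at 0 throughout. The 15 summed to 335 and 1126 CPM under the deletion label, against 8.95, 29.0 and 1029 CPM in controls. The 2 vas deferens markers split likewise, with sums of 355 and 1320 CPM against 2.35, 6.68 and 955 CPM. Spink1, a secretory gene of the accessory glands, had 0 and 0.530 CPM in libraries labelled Ghr deletion, against 2937, 892 and 1.43 CPM in controls. Pbsn, the probasin gene of the prostate, had 0.0454 and 8.76 CPM against 11.1, 475 and 0.816 CPM, so this defining secretory marker was near 0 in Ghr deletion replicate 1 and control replicate 3.

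Rnase1 (ENSMUSG00000035896, GRCm38 chromosome 14, 51144998 to 51146785, minus strand) had lower values in both libraries carrying the deletion label, as the rule requires. Its expected counts were 113 and 146 in the libraries labelled Ghr deletion, against 514, 1075 and 573 in the control libraries. As abundance this was 2.56 and 3.68 CPM under the deletion label, against 31.7, 55.2 and 12.6 CPM in controls 1 to 3. Every library labelled Ghr deletion was below every control, and among the controls replicate 2 was the highest and replicate 3 the lowest. The means were 3.12 ± 0.79 CPM (SD, n = 2) and 33.2 ± 21.3 CPM (SD, n = 3), a level 10.6-fold lower under the deletion label. The nearest values across the gap were 3.68 CPM in Ghr deletion replicate 2 and 12.6 CPM in control replicate 3. These are the values by which the family was picked. Across all tested genes, 12.5% had both deletion-labelled CPM values below all controls, and 10.8% had both above them.

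The size of the Rnase1 difference depended on which controls it was set against. The log2 fold change over all 5 libraries was -3.41. Without control replicates 1 and 2, the libraries with the high Spink1, it was -2.01 against control replicate 3 alone. Leaving out any 1 library gave -3.81 to -2.82. Per length, Rnase1 had 3.87 and 4.08 TPM (transcript abundance scaled for length) under the deletion label, against 16.9, 12.9 and 9.84 TPM in controls, a mean level 3.32-fold lower in TPM. TPM of the 2 groups are not on an even footing: 78.5% of tested genes had both deletion-labelled TPM values above all controls, and 0.307% had both below them. Fewer cells that make Rnase1 and less Rnase1 RNA per cell cannot be told apart in bulk tissue.

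Markers of the cell types that Rnase1 is known from, and of other tissues, were summed in each library. Of 14 pancreatic acinar markers, 14 were under 2 CPM in every library and 7 were at 0 throughout, and their summed level was 2.06 and 1.99 CPM under the deletion label and 1.23 CPM or more in each control. Only 1 of the 14 passed the filter. Cela1 alone gave 1.70 and 1.69 CPM of the deletion-labelled sums, so the acinar sum is mostly that of 1 gene and cannot describe acinar cells. The 11 endothelial markers summed to 193 and 134 CPM in libraries labelled Ghr deletion and to 162, 130 and 158 CPM in controls, with overlapping groups. Among these 11, Emcn had both deletion-labelled values above all controls, Egfl7 had both below them, and the other 9 overlapped. The 8 seminal vesicle markers summed to 104999 and 183272 CPM under the deletion label, against 451761, 234412 and 234784 CPM in controls. Of these 8, 6 had both deletion-labelled values below all controls, and Svs2 and Pate4 overlapped. Svs1 had 0.0454 and 7.90 CPM under the deletion label and 32915, 22520 and 58.6 CPM in controls, while Svs2 had 67744 and 118601 CPM against 68572, 47338 and 140510 CPM. Control replicate 3 was thus far below controls 1 and 2 in Svs1 and above them in Svs2. The 10 dorsolateral prostate and distal luminal markers summed to 765 and 761 CPM under the deletion label, and to 3620, 3669 and 654 CPM in controls, so that control replicate 3 lay with the deletion-labelled libraries. Of 8 hepatocyte markers, 7 had both deletion-labelled values below all controls, with sums of 4.29 and 1.21 CPM against 10.4, 32.7 and 11.2 CPM in controls. Of these 8, 6 were under 2 CPM in every library. All 6 adipocyte markers had both deletion-labelled values above all controls, with sums of 15.2 and 4.82 CPM against 2.35, 1.18 and 2.36 CPM. Of these 6, 4 were under 2 CPM in every library. Of 6 proximal luminal markers, Krt7 and Ly6d had both deletion-labelled values below all controls and 3 had both above them. Of these 6, 2 were under 2 CPM in every library. For comparison with these marker counts, 12.5% of all tested genes had both deletion-labelled CPM values below all controls and 10.8% had both above them. The part of these tissues and cell types in the Rnase1 difference was not tested.

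Rnase4 (ENSMUSG00000021876, chromosome 14, 51091077 to 51106151, plus strand), whose enzyme cuts RNA after uridine, had overlapping groups. It had 56.3 and 21.9 CPM in libraries labelled Ghr deletion, against 32.8, 13.4 and 29.1 CPM in controls. Ghr deletion replicate 1 was the highest library and control replicate 2 the lowest. The log2 fold change was 0.64 (SE 0.52, 95% interval -0.65 to 1.93; adjusted p 0.874 by edgeR). Without Ghr deletion replicate 1 it was -0.20, so the sign rested on that library.

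Ang (ENSMUSG00000072115, chromosome 14, 51091150 to 51102009, plus strand) encodes angiogenin, which drives vessel growth and cuts transfer RNA in stressed cells. It had 2.22 and 1.03 CPM in libraries labelled Ghr deletion, against 1.54, 2.00 and 2.32 CPM in controls. The groups overlapped, with Ghr deletion replicate 2 the lowest library. The log2 fold change was -0.27 (SE 0.47, interval -1.43 to 0.90; adjusted p 0.918 by edgeR), and without Ghr deletion replicate 2 it was 0.18. In the annotation 1 transcript of each gene starts in a first exon that ends at 51091253, and 1 transcript of each starts in a first exon that ends at 51096473. Although the promoter is shared, Rnase4 exceeded Ang in TPM by 12.0-fold and 10.1-fold under the deletion label, and by 10.3-fold, 3.76-fold and 5.90-fold in controls. Control replicate 2 had the smallest ratio.

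Rnase6 (ENSMUSG00000021880, chromosome 14, 51123908 to 51132187, plus strand) was low in all libraries. Its counts of 32 and 24 under the deletion label, against 11, 6 and 48 in controls, came to 0.726 and 0.606 CPM against 0.679, 0.308 and 1.06 CPM. Both deletion-labelled values lay inside the range of the controls. The log2 fold change was -0.06 (SE 0.62, interval -1.58 to 1.45; adjusted p 0.983 by edgeR), and it was 0.44 without control replicate 3. The 10 macrophage markers summed to 190 and 87.2 CPM in libraries labelled Ghr deletion and to 141, 67.4 and 106 CPM in controls, with overlapping groups.

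Rnase9 (ENSMUSG00000052382, chromosome 14, 51038459 to 51041869, minus strand) and Rnase10 (ENSMUSG00000021872, chromosome 14, 51007751 to 51010758, plus strand) were not tested. Rnase9 had 0 and 1 counts under the deletion label and 0, 0 and 1 counts in controls. Rnase10 had 12 and 0 counts under the deletion label and 0 counts in all 3 controls. A count of 0 allows up to 3 counts, which is 0.0662 to 0.185 CPM in these libraries (counting error only). So the 12 reads of Rnase10, 0.272 CPM, came from a single library, Ghr deletion replicate 1.

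**Figure D1:**
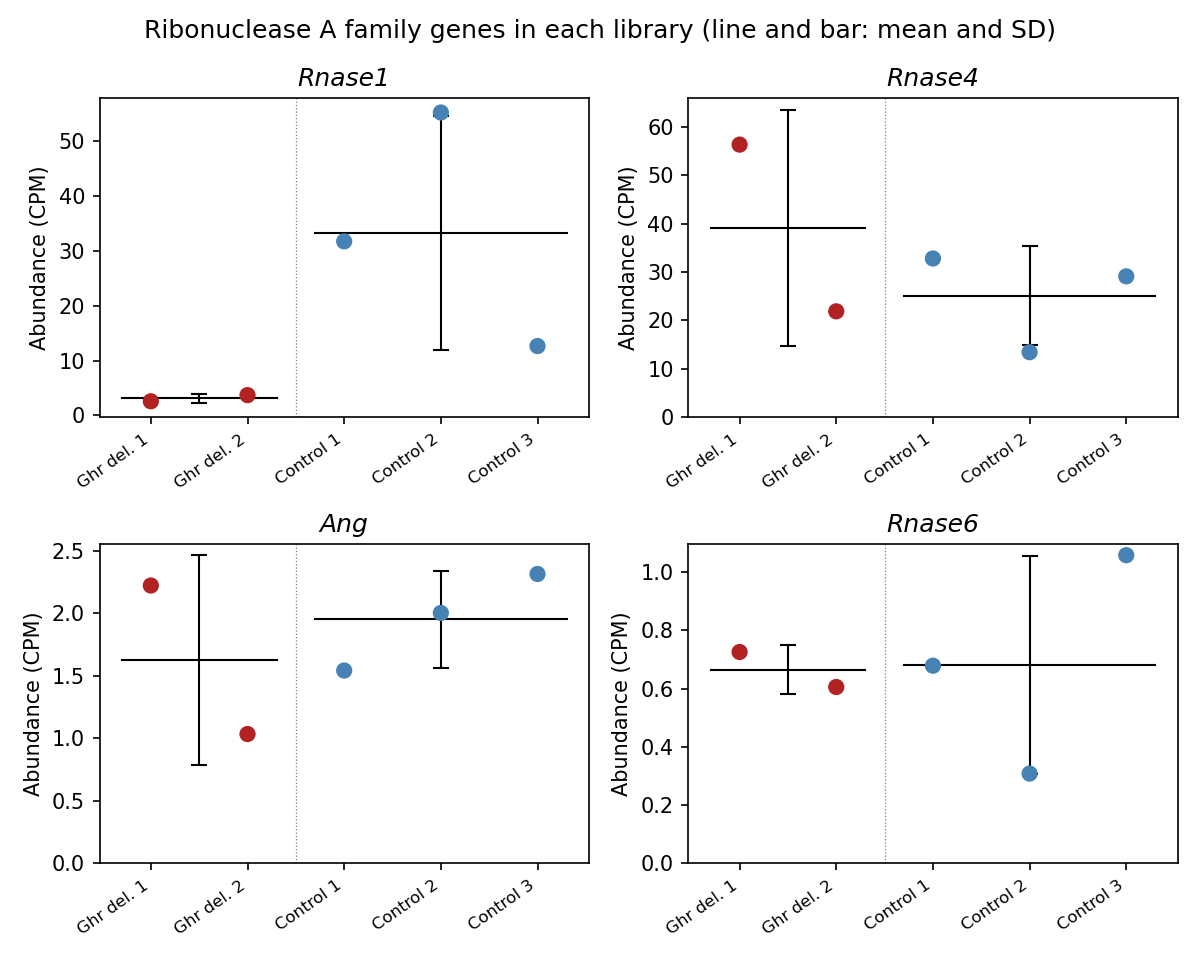
Abundance in CPM (vertical axes, each starting at 0) of the 4 tested family genes in each library, Ghr deletion libraries in red at the left and controls in blue at the right, with the mean and SD of each group as black lines. Rnase1 is at 2.56 and 3.68 CPM under the deletion label and at 12.6 CPM or more in the controls, while the groups overlap for Rnase4, Ang and Rnase6.

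The make-up of family transcripts differed between libraries. The 20 family genes in the files together had 59.3 and 25.7 TPM under the deletion label, against 29.0, 15.4 and 27.8 TPM in controls. Rnase1 made up 6.53% and 15.9% of this total in libraries labelled Ghr deletion, against 58.2%, 84.2% and 35.4% in controls. Rnase4 made up 82.1% and 54.0% under the deletion label, against 34.8%, 12.0% and 46.6% in controls. The order by TPM was thus Rnase4 first in both libraries labelled Ghr deletion and in control replicate 3, and Rnase1 first in control replicates 1 and 2. Rnase1 and Ang were close in Ghr deletion replicate 1, at 3.87 and 4.07 TPM. The ratio of Rnase4 to Rnase1 in TPM was 12.6 and 3.40 under the deletion label and 0.597, 0.142 and 1.32 in controls, and since Rnase1 chose the set this ratio is a description too.

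**Figure D2:**
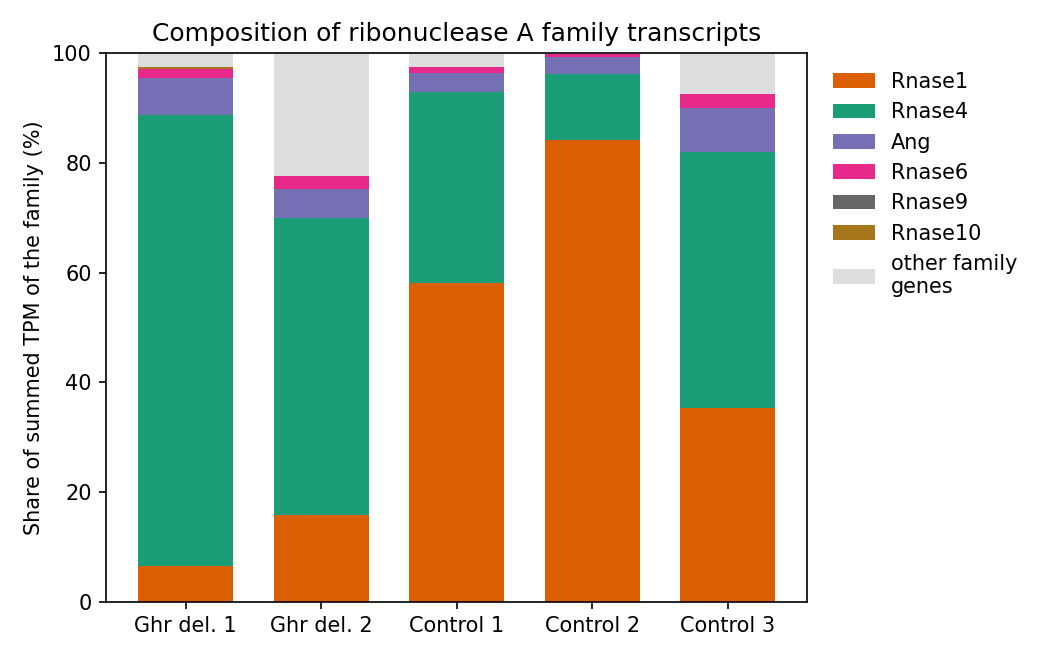
Share of the summed TPM of the 20 family genes (vertical axis, percent) taken by each gene in each library, Ghr deletion libraries at the left and controls at the right. Rnase1 takes 6.53% and 15.9% in the Ghr deletion libraries and at least 35.4% in each control, and genes outside the 6 take 22.3% in Ghr deletion replicate 2.

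The 6 members lie within 139.034 kb of chromosome 14, in a span that holds 11 annotated genes, 10 of them in the files and 6 tested. The 2 tested neighbours that are not among the 6 are Rnase12, another family gene of the male tract, and Eddm3b, an epididymal secretory gene. Rnase12 had 6 and 82 counts under the deletion label and 0, 0 and 44 counts in controls, and its log2 fold change was 1.57 (interval -2.66 to 5.80; adjusted p 0.881 by edgeR). Without Ghr deletion replicate 2 it was -1.36. Eddm3b had 2.95 and 6.33 CPM under the deletion label, against 0.0617, 0.0514 and 5.51 CPM in controls, with a log2 fold change of 1.25 (interval -2.74 to 5.24; adjusted p 0.890). Without control replicate 3 the log2 fold change of Eddm3b was 6.26 (adjusted p 0.058 by edgeR), and on log2(TPM + 1) by limma it passed, with an adjusted p of 0.0075 before the shift of all genes is taken off. On that scale Rnase12 passed too, with an adjusted p of 0.0096. Of the 18590 genes tested on it, 2234 were called higher and 60 lower, so a pass there is common. Both genes were high in control replicate 3 and near 0 in control replicates 1 and 2, as was Crisp1. Rnase1, at the end of the span, was highest in those 2 control libraries. Rnase12 gave 5.23 of the 25.7 TPM of the family in Ghr deletion replicate 2.

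**Figure D3:**
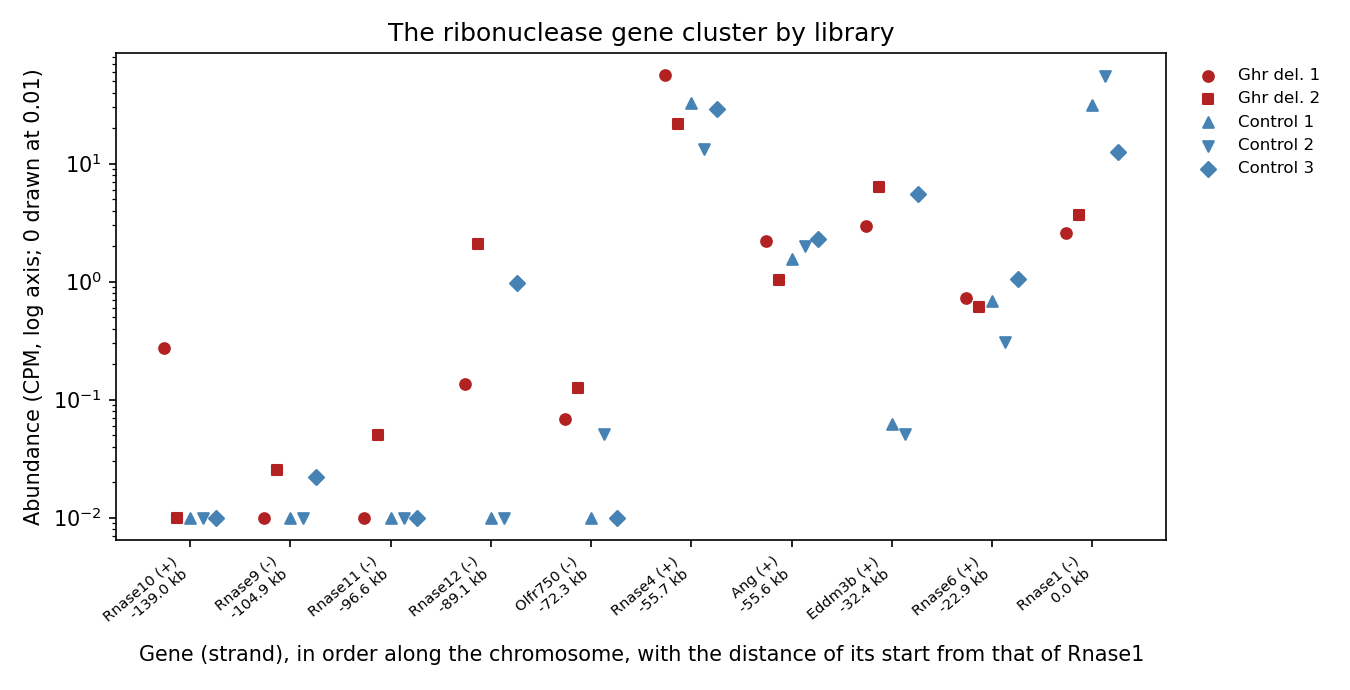
Abundance in CPM (log axis, values of 0 drawn at 0.01) of the 10 genes of the cluster that are in the files, in chromosome order with strand and distance from the Rnase1 start in kb; red symbols are Ghr deletion libraries and blue symbols controls. Rnase4 and Rnase1 are the 2 most abundant genes in each control, and Rnase12 and Eddm3b are at 0 or under 0.1 CPM in control replicates 1 and 2. Eddm3b is drawn above Rnase1 in both Ghr deletion libraries, but CPM are not scaled for length. In TPM, Eddm3b and Rnase1 were at 3.21 and 3.87 in Ghr deletion replicate 1 and at 5.08 and 4.08 in replicate 2.

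Other family genes were scarce. Of 19 listed beyond the 6 members, 14 had a symbol in the files, 9 had any count and 2, Rnase12 and Ear2, were tested. Ear2, an eosinophil-associated ribonuclease, had 19 and 0 counts under the deletion label and 11, 1 and 7 in controls (log2 fold change -0.34, adjusted p 0.964 by edgeR). Neither passed the test. The 6 eosinophil and neutrophil markers summed to under 1 CPM in every library.

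The inhibitor and the receptors of these enzymes did not pass the test. Rnh1, the cytosolic inhibitor that binds ribonucleases of this family tightly, had 56.9 and 45.0 CPM in libraries labelled Ghr deletion and 52.1, 40.9 and 51.3 CPM in controls, and its log2 fold change was 0.08 (interval -0.44 to 0.61; adjusted p 0.940 by edgeR). Plxnb2, the plexin known as a receptor of angiogenin, had 77.7 and 80.1 CPM under the deletion label and 81.0, 100.3 and 91.9 CPM in controls, with both deletion-labelled values below each control (log2 fold change -0.21, interval -0.68 to 0.26; adjusted p 0.874). Egfr, the epidermal growth factor receptor, reported in human cells as a receptor of pancreatic-type ribonucleases, had 45.4 and 35.6 CPM against 37.6, 26.9 and 39.8 CPM (log2 fold change 0.22, interval -0.39 to 0.83; adjusted p 0.882). Of these 3 genes, 0 passed edgeR's test, 0 had an unadjusted p under 0.05 and 0 passed by DESeq2.

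Across the whole table edgeR called 0 of 18590 genes at an adjusted p under 0.05, which is 0%. With p under 0.05 before adjustment there were 792, or 4.26%, and DESeq2 called 81 of 18992, or 0.426%. Against this, 0 of the 3 members tested apart from Rnase1 passed any of these 3 thresholds. The median log2 fold change of all tested genes was -0.01.

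Ribonucleases outside the family served as a comparison list of 30 genes, all tested. By edgeR 0 passed, 1 had an unadjusted p under 0.05, and DESeq2 called 0; their median log2 fold change was 0.04. In CPM, 6 had both deletion-labelled values above all controls and 3 had both below them, where 10.8% and 12.5% of all tested genes did so. Rnaset2b, an acid lysosomal ribonuclease, had 95.7 and 79.8 CPM under the deletion label, against 57.0, 37.9 and 66.5 CPM in controls (log2 fold change 0.71, interval 0.02 to 1.39; adjusted p 0.874). It has a close paralogue, Rnaset2a, so the division of reads between them is uncertain. Angel1 had a log2 fold change of 0.58, Rnasek, an endoribonuclease, -0.45, and Endov, which cuts RNA at inosine, -0.67, each with an adjusted p of 0.874.

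Among 9 secreted and lysosomal deoxyribonucleases, edgeR called 0, 2 had an unadjusted p under 0.05 in the lower direction, and DESeq2 called 1. Over all genes in either direction, 4.26% had an unadjusted p under 0.05 by edgeR and DESeq2 called 0.426%. The 1 called by DESeq2 was Dnase2b, an acid deoxyribonuclease, with 0.408 and 0.580 CPM in libraries labelled Ghr deletion, against 689, 372 and 3.18 CPM in controls. Its control values split as Spink1 did, with replicate 3 near the deletion-labelled libraries. Its log2 fold change was -9.48 (interval -15.6 to -3.39; adjusted p 0.874 by edgeR and 0.000243 by DESeq2). Without control replicates 1 and 2 it was -2.68. Dnase1l2, a relative of the serum deoxyribonuclease, had 3.65 and 7.87 CPM under the deletion label and 11.8, 12.2 and 9.53 CPM in controls (log2 fold change -0.95, interval -1.89 to -0.01; adjusted p 0.874). Endod1, at 0.58, and Pld3, a lysosomal exonuclease, at -0.36, did not pass the test, each with an adjusted p of 0.874.

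**Figure D4:**
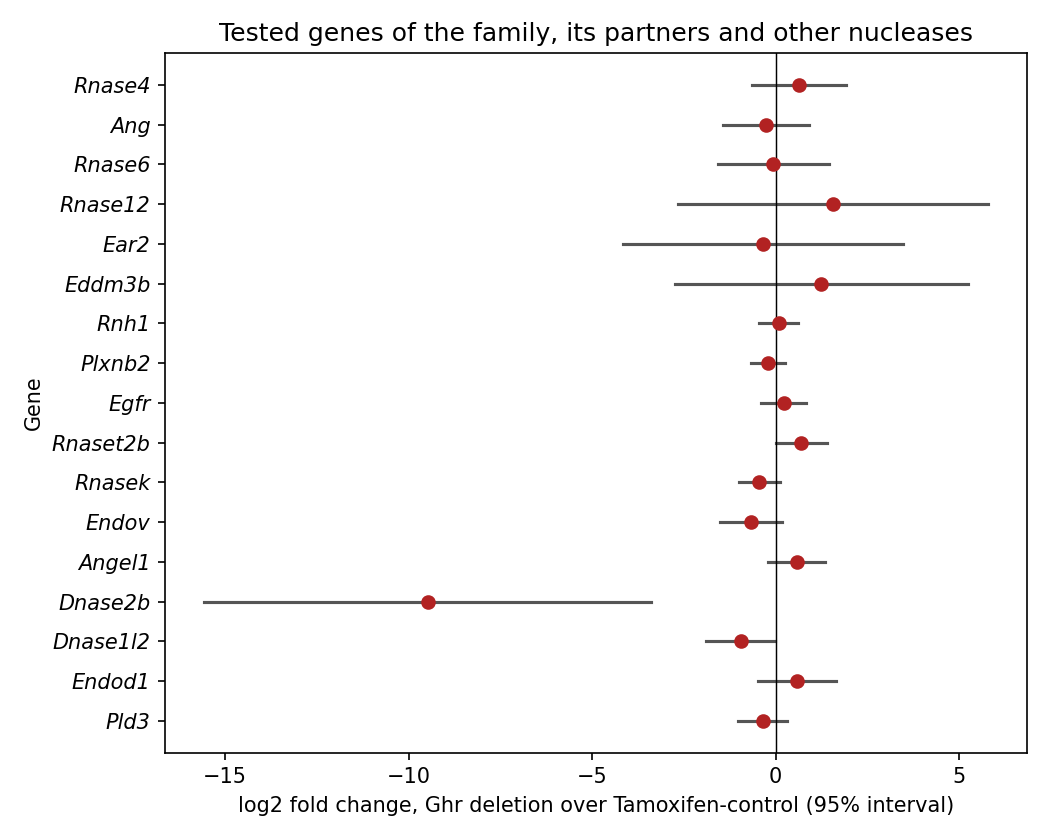
Log2 fold change of libraries labelled Ghr deletion over controls (horizontal axis, points) with 95% confidence intervals (lines) for the tested family genes other than Rnase1, the neighbour Eddm3b, the inhibitor and receptors, and the named genes of the comparison lists. The intervals of Rnase4, Ang and Rnase6 span 0, and Dnase2b at -9.48 lies farthest out.

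Genes whose pattern over the 5 libraries was most like that of Rnase1 were found among 12089 candidates by the root mean square difference of centred log2(CPM + 0.5). The nearest was Id1, at 0.40, with 5.06 and 3.96 CPM under the deletion label and 49.0, 57.9 and 10.8 CPM in controls. Then came Id3 at 0.46, Hopx at 0.47, Hdc at 0.48 and Zfpm1 at 0.49. Id1 and Id3 encode partners that keep helix-loop-helix factors off DNA, Hopx a small homeodomain protein, Hdc the enzyme that makes histamine and Zfpm1 a cofactor of GATA factors. All 5 were highest in control replicates 1 and 2, with control replicate 3 between these and the libraries labelled Ghr deletion. The measure picks genes by their likeness, so the shared order is what chose them.

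By the same measure Spon1, which encodes the matrix protein spondin, differed from Rnase4 by 0.10, and Arhgdib, Srgn, Mrc1 and Errfi1 by up to 0.13. Mrc1, the mannose receptor of macrophages, had 47.0 and 16.0 CPM under the deletion label and 21.9, 11.4 and 22.2 CPM in controls. Each of these 5 was highest in Ghr deletion replicate 1 and lowest in control replicate 2, as was Rnase4. Here too the likeness picked the genes, so the shared order is no separate result.

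**Figure D5:**
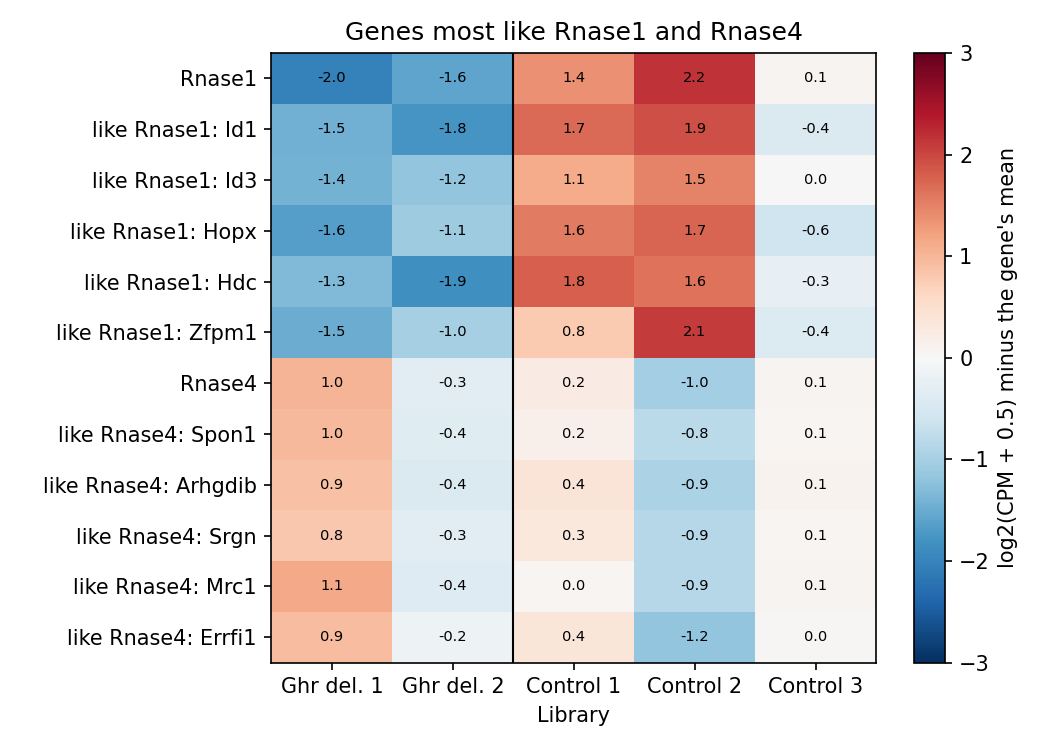
Heat map of log2(CPM + 0.5) minus the mean of each gene over the 5 libraries (colour and printed value) for Rnase1, Rnase4 and the 5 genes most like each, with Ghr deletion libraries at the left of the black line. The Rnase1 rows are lowest in the Ghr deletion libraries and highest in control replicates 1 and 2, and the Rnase4 rows are highest in Ghr deletion replicate 1.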

How the data were processed

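Flash-frozen tissue gave stranded libraries of total RNA, per the labels' protocols. Per the submitters' processing notes, GRCm38, RSEM 1.3.0, STAR 2.5.3a and bcl2fastq 2.20.422 were used. The annotation release and strand setting were not given in the sources used here. Per the file headers, the authors deposited RSEM expected counts, which divide a multiply matching read among genes, together with TPM, which is scaled by effective length, and the effective length itself. These counts were rounded, filtered (filterByExpr) and scaled by TMM, and compared with edgeR 4.0.16 (quasi-likelihood test, group only, R 4.3.3, Benjamini-Hochberg at 0.05). CPM use the TMM-scaled depth. TPM served to compare genes within a library. An exact test over 2 against 3 libraries cannot give a two-sided p below 0.2. The series text describes the libraries as biological replicates.

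The members and lists were chosen with earlier results of these data known. Named genes are the members, the 2 to 4 with the smallest p in each list, tested neighbours within the span, Ghr, and the 5 genes most like Rnase1 above a mean log2 CPM of 1. The genes most like Rnase4 were added after its values were seen, and so were Crisp1, Spink1, Pbsn, Emcn, Egfl7 and Cela1. Alternatives were other scalings and filters, DESeq2 1.42.0, limma 3.58.1 on log2(TPM + 1) or log2(TPM + 0.1), offsets from effective length, removal of the 20 most abundant genes, a replicate block, and libraries left out. Symbols matched 99.5% of gene identifiers. Gene coordinates and exons are from GENCODE M21 on GRCm38, and coding stretches were translated with Biopython 1.88. The fitting functions were also run on simulated counts with known changes, and how many of these changes each recovered is not given here.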

Additional observations from a re-analysis of the deposited data

How the results depend on the processing

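Rnase1 was lower under the deletion label in each of the 17 alternatives, with log2 fold changes of -3.81 to -2.01. It was -2.35 on log2(TPM + 1) relative to the median of all genes, and -2.01 without control replicates 1 and 2, a setting chosen after seeing the data. Log2 values under TPM or library size only are given relative to the median of all genes, which moved to 0.87 with a TPM pseudocount of 1, to 1.33 with 0.1 and to 0.58 with library size only. The adjusted p of Rnase4 ran from 0.068 to 1.00, of Ang from 0.154 to 1.00 and of Rnase6 from 0.103 to 1.00; under TPM the p tests the unshifted difference.

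Some signs turned. Leaving out each library in turn gave -0.20 to 1.17 for Rnase4, -0.92 to 0.18 for Ang, -0.41 to 0.44 for Rnase6, -6.11 to 0.60 for Ear2, -1.36 to 2.51 for Rnase12, -0.10 to 0.24 for Rnh1 and -0.20 to 0.88 for Ghr. Without control replicates 1 and 2 together, Ear2 was at 0.50, Eddm3b at -0.25, Rnh1 at -0.0077 and Endod1 at -0.091. On log2(TPM + 1), Plxnb2 was at 0.33, Rnasek at 0.12 and Pld3 at 0.33. With the replicate block Rnase6 was at 0.50, Eddm3b at 6.27 (adjusted p 0.000186) and Rnase12 at 8.27 (adjusted p 0.0139), the last 2 past the threshold by edgeR. On log2(TPM + 0.1), limma gave adjusted p of 0.000109 for Eddm3b and 0.00215 for Rnase12. Of 18590 tested genes, 552 were called higher with the block and 686 on log2(TPM + 0.1). The cause was not tested.

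Numbers of genes called depended on the test. Called higher were 2 with no low-count filter, 20 by DESeq2, 2234 on log2(TPM + 1), 686 on log2(TPM + 0.1), 552 with the replicate block and 0 to 15 with each library left out. Called lower were 61 by DESeq2, 60 and 47 on the 2 TPM scales, 574 with the block and 0 to 33 with each library left out; the upper ends, 15 and 33, are without control replicate 3. Of all list members, 1 was called by DESeq2 (Dnase2b), 3 and 2 on the TPM scales, 4 with the block (Dnase2b, Endod1, Rnase12 and Rnaset2a) and 0 to 1 with each library left out. The lists, which leave out the 6 members, held 2, 3, 30 and 9 tested genes. The calls over all genes given above are out of 18590 with the block and on the TPM scales, and out of 18992 by DESeq2. Deviations of same-numbered libraries within their groups correlated at 0.30 and 0.26 over genes. With 2 deletion-labelled libraries, the deviations of 1 are those of the other with the sign turned. The value of 0.26 is thus the -0.26 of Ghr deletion replicate 1 with control replicate 2, so these correlations cannot show that the numbers pair the mice. Counts under 100 in every library limit Rnase6, Rnase9, Rnase10, Rnase12 and Ear2.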
